A study of Mus musculus with 2 samples.

Results

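The mouse genome holds paired clusters of miRNA genes in which a Mir23, a Mir27 and a Mir24 hairpin follow each other on the same strand. The Mir23a cluster, with Mir23a, Mir27a and Mir24-2, lies on chromosome 8, and the Mir23b cluster, with Mir23b, Mir27b and Mir24-1, lies on chromosome 13. The members described here are the 5 of these genes that have a row of counts, Mir23a, Mir27a, Mir24-2, Mir23b and Mir27b, out of 1973 miRNA genes counted. They were chosen by symbol and position, through their Ensembl identifiers. Mir24-1 has no row of its own, and reads over it appear only as antisense counts of Mir3074-1, the gene opposite it.

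Small RNA was sequenced from limb tissue of B6NCrl embryos at embryonic day 13.5, male and female pooled. The series has 1 group with 2 biological replicates, which come from separate biosamples that carry 1 donor label, and the labelled size range is under 30. No treated, mutant or second tissue is among these samples, so each value describes the untreated limb, and the only replicate error is the spread between these 2 libraries, which may be partly technical.

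A miRNA is cut from a hairpin transcript, and its mature strand guides Argonaute to messenger RNAs that pair with its seed, bases 2 to 8. Each cluster is known to be made as a single primary transcript whose hairpins are cut out one by one, so its members share transcription but not necessarily processing or stability. In tissues found in limbs, miR-23a is known to lower the muscle atrophy ligases Fbxo32 and Trim63, and miR-27 to lower Pax3 in muscle progenitors and Pparg in fat cell precursors. miR-24 is known to lower cell cycle regulators such as Myc and E2f2, and the clusters are known for roles in blood vessels.

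The mature sequences are shown because they set which reads can be told apart between the clusters. They are listed 5′ to 3′ from RefSeq (GRCm38.p6), with the seed in capitals, and all 5 members matched that table. The arms of Mir23 come first (miR-23a-5p, miR-23a-3p, miR-23b-5p and, by name only, miR-23b-3p), followed by those of Mir27 and of Mir24.
miR-23a-5p: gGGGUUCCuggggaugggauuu
miR-23a-3p: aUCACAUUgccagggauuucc
miR-23b-5p: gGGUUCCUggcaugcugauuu
miR-27a-5p: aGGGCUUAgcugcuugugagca
miR-27a-3p: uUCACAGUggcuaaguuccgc
miR-27b-5p: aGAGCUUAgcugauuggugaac
miR-27b-3p: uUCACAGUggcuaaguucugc
miR-24-2-5p: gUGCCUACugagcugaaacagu
miR-24-1-5p: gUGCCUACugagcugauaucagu
miR-24-3p: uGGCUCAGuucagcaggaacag

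miR-27a-3p and miR-27b-3p share their seed and differ by C19U, with positions counted from 1 at the 5′ end of miR-27a-3p, so a read that ends within the first 18 bases matches both. No other mature sequence in the table has that seed. The seeds of miR-23a-3p and miR-27a-3p differ at 1 of their bases. The 5p arms of Mir24-2 and Mir24-1 share their seed and their first 16 bases. miR-24-3p is identical in Mir24-1 and Mir24-2, the hairpins of both clusters. Of the 11 arms whose sequence is listed for the members and Mir24-1, counting miR-24-3p once for each of its genes, 9 occur in 1 hairpin of the table, and the exceptions are the copies of miR-24-3p.

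The hairpins show how far the likeness of the clusters reaches. Capitals mark the listed mature arms.
Mir23a: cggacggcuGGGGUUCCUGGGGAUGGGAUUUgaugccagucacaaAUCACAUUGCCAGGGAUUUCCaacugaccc
Mir23b: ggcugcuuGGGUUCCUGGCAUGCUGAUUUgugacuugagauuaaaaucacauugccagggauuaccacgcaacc
Mir27a: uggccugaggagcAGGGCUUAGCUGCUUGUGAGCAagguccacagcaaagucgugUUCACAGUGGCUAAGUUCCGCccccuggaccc
Mir27b: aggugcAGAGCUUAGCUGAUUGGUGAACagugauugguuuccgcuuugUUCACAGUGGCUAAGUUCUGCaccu
Mir24-2: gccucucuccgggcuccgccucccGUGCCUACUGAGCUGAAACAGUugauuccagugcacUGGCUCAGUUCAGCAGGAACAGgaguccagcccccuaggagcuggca
Mir24-1: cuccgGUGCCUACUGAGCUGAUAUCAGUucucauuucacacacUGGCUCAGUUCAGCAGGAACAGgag

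The longest identical run is 20 bases between Mir23a and Mir23b, 20 bases between Mir27a and Mir27b, and 28 bases between Mir24-2 and Mir24-1. The first 18 bases of miR-23a-3p stand unbroken in the Mir23b hairpin, so a Mir23 read confined to them matches both, as it does for the Mir27 genes. Each member's longest run was with its partner in the other cluster, and no other hairpin in the table shared more than 13 bases with any of them. A read with more than 1 mapping place is left out of every gene in these tables. Such reads were 30.8% and 29.5% of all reads in replicates 1 and 2, and how many of them came from these hairpins is not recorded in the tables. Values for Mir24-2 therefore rest on reads that differ from Mir24-1, and they leave out a full-length miR-24-3p read that maps to both places.

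The Mir23a cluster spans 404 bases, chr8:84208518-84208921 on the plus strand of mm10. Mir23a lies at chr8:84208518-84208592, Mir27a at chr8:84208672-84208758 and Mir24-2 at chr8:84208815-84208921, with 79 and 56 bases between neighbours. Mir23a and Mir27a lie outside other annotated genes, and the last 2 bases of Mir24-2 overlap an exon of the lincRNA Gm26532. The Mir23b cluster spans 792 bases up to the end of Mir24-1, on the plus strand of chromosome 13. Mir23b lies at chr13:63300484-63300557, in an intron of 2010111I01Rik, a protein-coding gene on the same strand. Mir27b lies at chr13:63300712-63300784 and Mir24-1 at chr13:63301208-63301275, both wholly within annotated exons of 2010111I01Rik. The spacers are 154 and 423 bases, and the whole cluster lies opposite introns of Fancc. The hairpins of the Mir23a cluster are richer in G and C (56% in Mir23a, 59.8% in Mir27a and 61.7% in Mir24-2) than those of the Mir23b cluster (48.6% in Mir23b, 47.9% in Mir27b and 51.5% in Mir24-1).

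**Figure D1:**
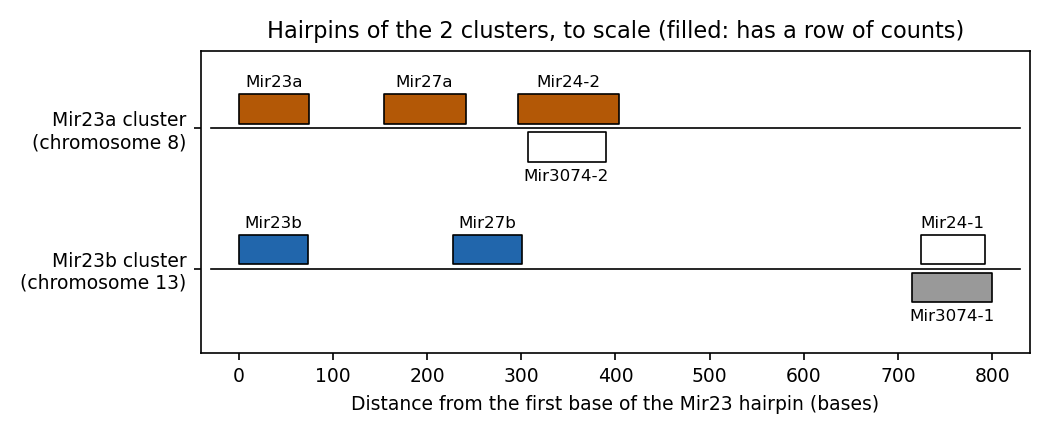
Hairpins of both clusters drawn to scale, with the distance in bases from the first base of the Mir23 hairpin on the x axis, plus-strand genes above each line and minus-strand genes below. Filled boxes have a row of counts and open boxes do not. The order of the hairpins matches, while the Mir23b cluster spans 792 bases against 404 for the Mir23a cluster.

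Sense counts in miRNA genes came to 5927321 in replicate 1 and 6003632 in replicate 2, and every level below is a CPM value relative to the total of its own library. Among tissue markers, those of cartilage summed to 48690 and 48605 CPM in replicates 1 and 2, those of mesenchyme to 30655 and 30970 CPM, and those of ectoderm and epithelium to 20227 and 23584 CPM. Endothelial Mir126a lay at 20830 and 19637 CPM, skeletal muscle markers summed to 3817 and 4016 CPM, and the liver markers to 152 and 164 CPM. Of the 5 counted nerve markers, 1 was detected, and Mir9-2 and the 3 Mir124a genes (Mir124a-1, Mir124a-2 and Mir124a-3) were at 0. Of the 5 counted muscle markers 2 were detected, and Mir133a-2 was at 0. A 0 at such multi-copy genes covers only reads that map to a single place and does not show that the miRNA was absent. These are whole limbs, in which fewer cells of a type and less RNA per cell cannot be told apart.

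All 5 members were detected, which here means 10 or more sense counts per library, as were 372 of all counted genes (18.9%). Together they held 5.19% of sense counts in replicate 1 and 5.65% in replicate 2, a mean of 5.42% ± 0.32 (SD, n = 2). The Mir23b cluster held 3.79% ± 0.17 and the Mir23a cluster 1.63% ± 0.15 (SD, n = 2), and the values of the clusters did not overlap. Nearly all of this came from the Mir23 genes, which made up 93.8% ± 0.074 of the members' counts (SD, n = 2). The median of the members' mean levels was 2908 CPM, against 106 CPM over the detected genes and 0 CPM over all counted genes.

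Mir23b, which encodes miR-23b, had 200827 counts in replicate 1 and 216261 in replicate 2. These are 33882 CPM (95% interval 33736 to 34027) and 36022 CPM (95% interval 35873 to 36171), exact binomial intervals that cover counting error only. The libraries differed by more than counting error, and the mean was 34952 ± 1513 CPM (SD, n = 2), at rank 8 in replicate 1 and rank 7 in replicate 2 among all counted genes. Mir23a, its partner on chromosome 8, had 87768 and 101854 counts, or 14807 and 16965 CPM in replicates 1 and 2. Its mean was 15886 ± 1526 CPM (SD, n = 2), at ranks 17 and 15, so both Mir23 genes were among the miRNA genes with the most counts. These ranks leave out reads with more than 1 mapping place, so a miRNA made from several copies can rank lower than its abundance in the limb.

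Mir27b, which encodes miR-27b, had 16651 and 18057 counts in replicates 1 and 2, or 2809 and 3008 CPM. Its mean was 2908 ± 140 CPM (SD, n = 2), at rank 55 by mean. Mir27a had 1325 and 1349 counts, or 224 and 225 CPM, with counting intervals of 212 to 236 and 213 to 237 CPM. Its libraries thus lay within each other's counting interval, at a mean of 224 ± 0.82 CPM (SD, n = 2) and rank 149. Mir24-2, the third hairpin of the Mir23a cluster, had 1233 and 1391 counts, or 208 and 232 CPM in replicates 1 and 2. Its mean was 220 ± 16.7 CPM (SD, n = 2), at rank 151.

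By mean CPM the order was Mir23b, Mir23a, Mir27b, Mir27a and Mir24-2. The first 4 were separated from each other by far more than the spread of the libraries, since the lowest value of Mir23b, Mir23a and Mir27b each lay above the highest value of the next gene. The order of Mir27a and Mir24-2 was not resolved: Mir27a was higher in replicate 1 and Mir24-2 in replicate 2. These are levels per gene, since a small RNA read covers a whole mature strand and does not scale with the hairpin. Divided by hairpin length, the levels kept this order, at 472 CPM per base for Mir23b, 212 for Mir23a, 39.8 for Mir27b, 2.58 for Mir27a and 2.05 for Mir24-2. On that scale Mir27a, at 2.57 and 2.58 CPM per base, lay above Mir24-2, at 1.94 and 2.17 CPM per base, in both libraries.

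**Figure D2:**
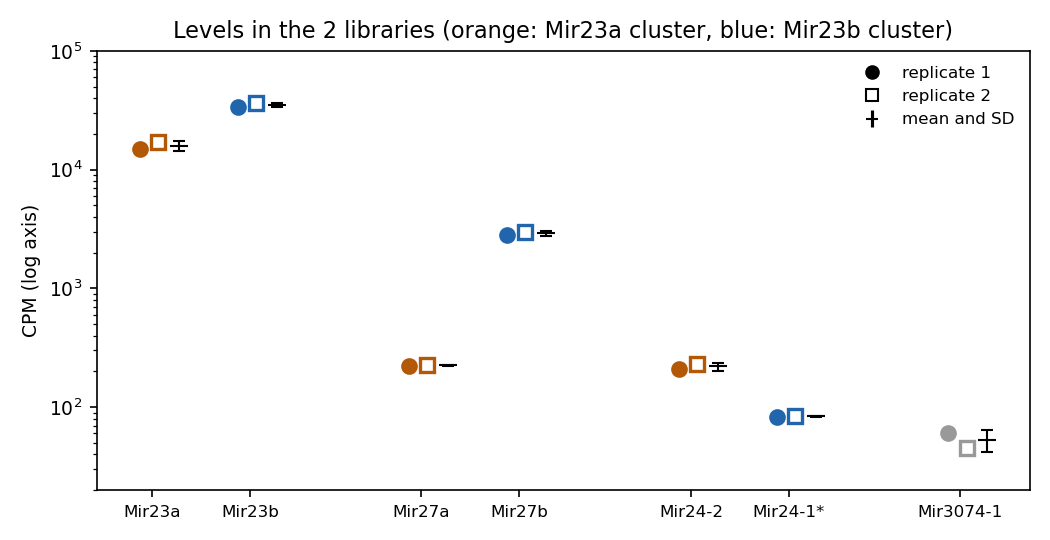
CPM on a log axis for each gene in replicate 1 (circles) and replicate 2 (squares), with the mean and SD of the 2 libraries beside them; orange marks the Mir23a cluster, blue the Mir23b cluster and grey Mir3074-1. The entry Mir24-1* is the antisense count of Mir3074-1 and not a row of Mir24-1. Mir23b lies above Mir23a and Mir27b above Mir27a in both libraries, while Mir24-1*, near 84 CPM, lies below Mir24-2.

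**Figure D3:**
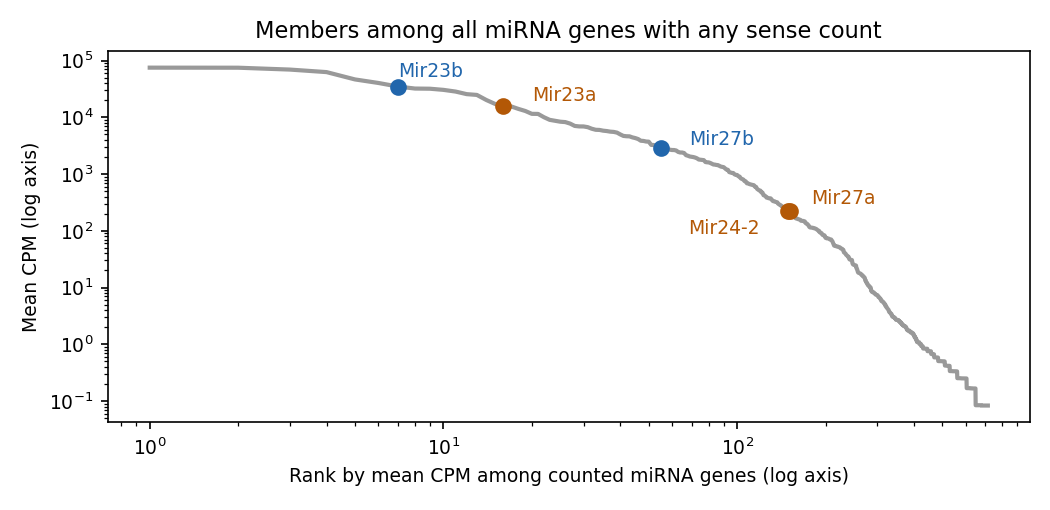
Mean CPM against rank, both on log axes, for every miRNA gene with any sense count (grey line), with the members as points. Mir23b and Mir23a sit on the upper plateau at ranks 7 and 16, Mir27b at rank 55, and Mir27a and Mir24-2 overlap at ranks 149 and 151.

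Matching positions of the clusters were compared within each library, where library scaling cancels. At the first position Mir23b exceeded Mir23a 2.29-fold in replicate 1 and 2.12-fold in replicate 2, a log2 ratio of 1.14 ± 0.076 (SD, n = 2). Of the counts on the Mir23 genes, Mir23b thus made up 69.6% (95% interval 69.4 to 69.8) in replicate 1 and 68.0% (67.8 to 68.1) in replicate 2. At the second position Mir27b exceeded Mir27a 12.6-fold and 13.4-fold, a log2 ratio of 3.70 ± 0.064 (SD, n = 2). Mir27b made up 92.6% (92.2 to 93.0) and 93.0% (92.7 to 93.4) of the counts on the Mir27 genes. The direction of both ratios was the same in replicates 1 and 2, and each was many times their SD, but 2 libraries of 1 group cannot give a two-sided exact permutation p below 0.5, so none is given.

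The imbalance between the clusters was not the same at the first and second positions. The log2 ratio at the Mir27 position exceeded that at the Mir23 position by 2.46 in replicate 1 and 2.66 in replicate 2, a mean of 2.56 ± 0.14 (SD, n = 2), or 5.88-fold. Within the Mir23a cluster, as counted, Mir27a lay 70.7-fold below Mir23a, a log2 ratio of -6.14 ± 0.13 (SD, n = 2), and Mir24-2 lay 72.2-fold below it, at -6.17 ± 0.029. Within the Mir23b cluster Mir27b lay 12.0-fold below Mir23b, at -3.59 ± 0.0072. Mir23a made up 97.3% ± 0.15 of the counts of its 3 rows and Mir23b 92.3% ± 0.035 of those of its 2 rows (SD, n = 2). Among the counted rows of each cluster the Mir23 gene thus had the most counts, while the Mir24 hairpins, whose shared reads are left out, cannot be placed in that order. For the sums of the Mir23 and Mir27 rows, the Mir23b cluster lay 2.35-fold above the Mir23a cluster (log2 ratio 1.24 ± 0.074), a value set almost entirely by the Mir23 genes.

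At the third position the comparison could be made only through Mir3074-1, which lies opposite Mir24-1 at chr13:63301199-63301283 and covers all 68 bases of it. Its antisense counts, reads on the strand of Mir24-1, were 493 in replicate 1 and 506 in replicate 2, or 83.2 and 84.3 CPM, a mean of 83.7 ± 0.78 CPM (SD, n = 2). At least 10 antisense counts in each library were found for 14 of the counted genes (0.71%). Set against Mir24-2 these reads were 2.62-fold lower, with log2 ratios of -1.32 and -1.46 in replicates 1 and 2 (mean -1.39 ± 0.096, SD, n = 2). They made up 28.6% (26.4 to 30.8) and 26.7% (24.7 to 28.7) of the sum of both. Among the counted reads, the chromosome 13 locus was thus the lower one at the Mir24 position and the higher one at the Mir23 and Mir27 positions. Which locus gave more miR-24 cannot be told from them. Both Mir24 values leave out reads that map to both places, so this ratio covers only reads that map to a single locus. The window over Mir24-1 is that of Mir3074-1, 85 bases against 107 for Mir24-2, which also enters the ratio. The part of miR-24-3p in it was not tested.

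Other same-family genes at matching positions of paralogous clusters gave a scale for these ratios. Of 33 listed pairs, 32 had rows for both genes and 28 had both genes detected. Their absolute log2 ratios ran from 0.0075 for Mir20a and Mir93 to 8.11 for Mir18 and Mir18b, with a median of 1.99. Pairs with an undetected gene are left out of this range, also where the counts were far apart. Mir206 had 22175 and 23657 counts against 1 and 1 for Mir1a-1, and Mir133b 446 and 452 against 0 and 0 for Mir133a-2. Mir1a-1 and Mir133a-2 are multi-copy genes, with Mir1a-2 and Mir133a-1 as further copies. Their counts cover only reads that map to a single place, so the size of these gaps is uncertain. The other undetected pairs with rows had at most 3 counts per gene. The Mir23 ratio of 1.14 was larger than that of 6 of the 28 pairs, and the nearest to it was Mir99a over Mir99b at 1.29. The Mir27 ratio of 3.70 was larger than that of 22 of the 28, and the nearest was Mir199a-2 over Mir199a-1 at 3.24. Mir199a-1 and Mir199a-2 share a run of 27 bases, so their own values are uncertain. Among the 14 pairs whose hairpins are both in the RefSeq table and share a run of under 22 bases, 5 lay below the Mir23 ratio and 11 below the Mir27 ratio. That limit covers the partners only, and reads shared with a further copy are still left out. Mir92-1, paired there with Mir25, shares 22 bases with Mir92-2. Mir181b-2, paired there with Mir181d, shares 26 bases with Mir181b-1. Several pairs share a gene, so they are not independent, and they are given as a description with no test.

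**Figure D4:**
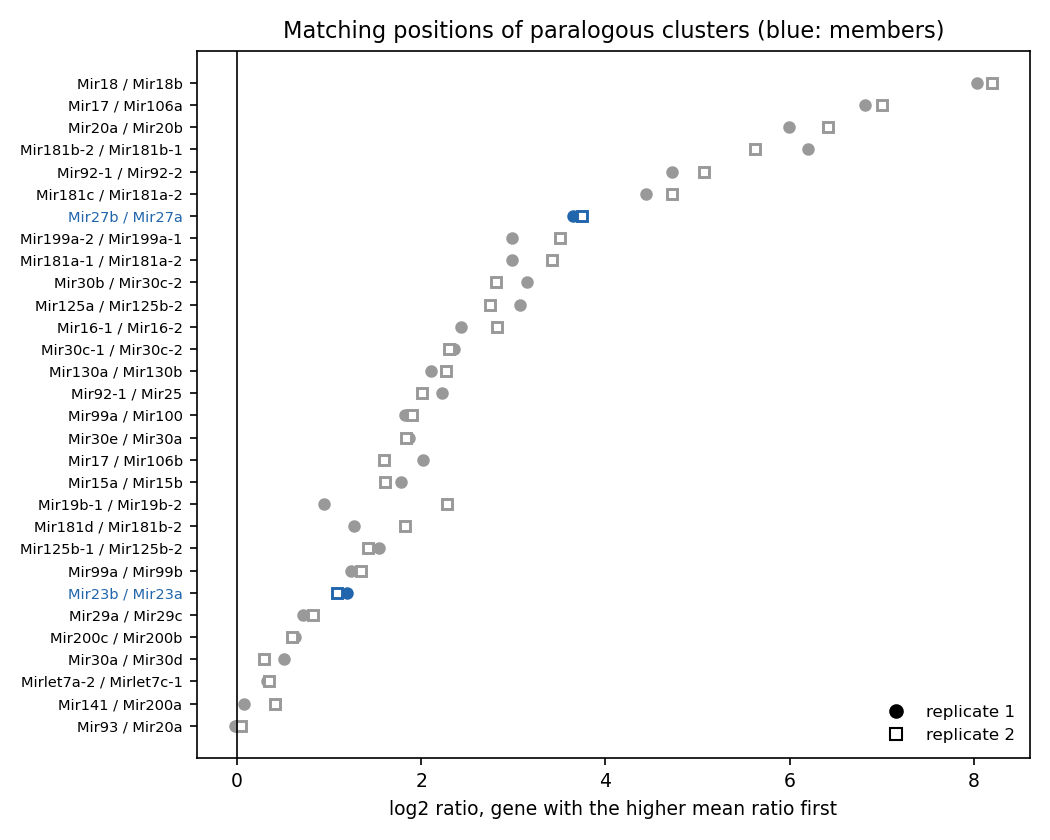
log2 ratio of counts at matching positions of paralogous clusters on the x axis, for each pair with both genes detected, in replicate 1 (circles) and replicate 2 (squares); the gene with the higher mean ratio is named first, and the members are in blue. Mir23b over Mir23a lies in the lower part of the 28 other pairs and Mir27b over Mir27a above 22 of them.

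The detected genes nearest in level to each member are given for scale, and their closeness follows from how they were picked. By distance on log2(CPM + 1) over the 2 libraries, the detected genes nearest to Mir23b were Mir130a, at 32213 ± 1679 CPM, and Mirlet7i, at 31984 ± 3757 CPM (SD, n = 2). Mirlet7i in replicate 2, at 34641 CPM, lay above Mir23b in replicate 1, so these values overlapped across libraries. Nearest to Mir23a were the Hox cluster gene Mir10b, at 14101 ± 232 CPM, and Mir100, at 17236 ± 833 CPM. Nearest to Mir27b were Mir708, at 2853 ± 247 CPM, and Mir483 of the Igf2 locus, at 2758 ± 181 CPM. Mir27a and Mir24-2 had the same nearest genes, Mir32 at 220 ± 9.2 CPM and Mir1306 at 228 ± 11.9 CPM (SD, n = 2).

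All 5 members were higher in replicate 2, against 47.3% of the 444 genes with at least 10 sense counts over both libraries. Their log2 ratios of replicate 2 over replicate 1 were 0.20 for Mir23a, 0.16 for Mir24-2, 0.098 for Mir27b, 0.088 for Mir23b and 0.0074 for Mir27a. The members' median absolute ratio of 0.098 lay beside 0.13 for the 190 genes of at least 100 CPM and 0.19 for all genes tested. In an exact binomial test with Benjamini-Hochberg adjustment over all genes, called at an adjusted p of 0.05 and an absolute log2 ratio of at least 1, 0 of 5 members were called, against 3.38% of all genes tested. With TMM or DESeq2 size factors that count was also 0, against 3.38% and 2.93% of all genes tested. Without the minimum ratio 4 of 5 passed the adjusted p, all higher in replicate 2, against 40.3% of all genes in either direction and 18.2% in that direction, and Mir27a did not (adjusted p = 0.957, exact binomial test). The test sets library against library and allows for counting error alone. Passing thus depends on the counts of a gene, and the share among genes with counts like those of the members was not taken. Of the 9 tissue marker lists 7 also had higher sums in replicate 2, among them ectoderm and epithelium, with 6 of 7 genes higher, and vascular smooth muscle (6425 and 7229 CPM), with 2 of 2. In the other lists with higher sums, 3 of 5 genes were higher for skeletal muscle and 2 of 3 for blood. For liver 1 of 2 was higher, for mesenchyme 1 of 4 and for nerve 1 of 5, so a higher sum did not mean that most genes of a list rose. The sums for cartilage and endothelium were lower there, and the part of these lists in the members' ratios was not tested.

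**Figure D5:**
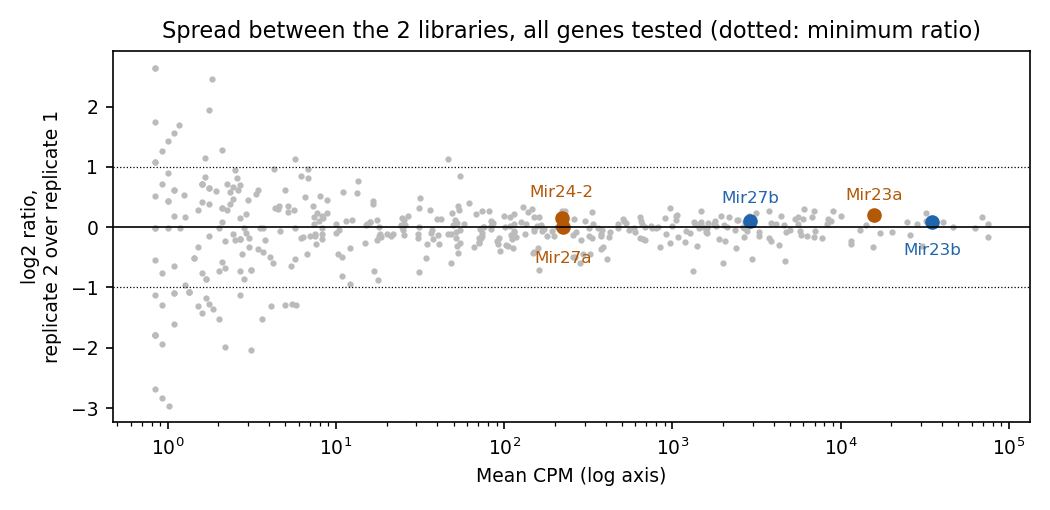
log2 ratio of replicate 2 over replicate 1 against mean CPM on a log axis, for the 444 genes tested (grey) and the members (orange, Mir23a cluster; blue, Mir23b cluster); dotted lines mark the minimum log2 ratio of 1. The members lie between 0.0074 and 0.20, inside the spread of genes of like level.

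The ratios between members moved little between the libraries. That of Mir23b over Mir23a fell by 0.11 on the log2 scale from replicate 1 to replicate 2, more than counting error (Fisher's exact test on the counts, two-sided, adjusted over 5 ratios, p = 1.06e-40). That of Mir27a over Mir23a fell by 0.19 (Fisher's exact test, adjusted p = 0.00196). The ratios of Mir27b over Mir27a, of Mir24-2 over Mir23a and of Mir27b over Mir23b changed by 0.091, -0.041 and 0.010, which did not pass the same exact test (adjusted p = 0.195, 0.531 and 0.531). Mir23a entered both ratios that passed, but also that of Mir24-2 over Mir23a, which did not. Whether a change passes depends on the counts: Mir27b over Mir27a changed by 0.091, with 1325 and 1349 counts of Mir27a. The steadiest was Mir27b over Mir23b, where Mir27b made up 7.66% and 7.71% of the counts of its cluster in replicates 1 and 2.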

How the data were processed

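MicroRNA-seq counts were taken for 2 limb libraries of 1 group. The authors deposited, per library, whole-number read counts for 1973 miRNA genes, on either strand, sense and antisense by the layout of the columns, after 4 lines for reads in no gene. The build is mm10 per the labels and the annotation GENCODE M4 per the text deposited with the counts; aligner and counting program: not given in the sources used here. Of all reads, 47.8% and 47.4% were sense counts in genes in replicates 1 and 2, and unmapped, multimapping and unassigned reads (17.2%, 30.8% and 4.24% in replicate 1, 18.6%, 29.5% and 4.48% in replicate 2) stayed out of totals. A count of 0 allows up to 3 counts, 0.506 and 0.4997 CPM.

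Symbols and coordinates came from GENCODE M21 on the same build, matched without version, and sequences from RefSeq. Ratios added 0.5 counts to each gene. Libraries were compared with exact binomial and Fisher tests (scipy 1.17.1), as edgeR has no contrast in 1 group. The binomial test was checked on simulated counts with no spread between libraries beyond counting error, and the Fisher test was not checked. Alternative size factors came from edgeR 4.0.16 (TMM) and DESeq2 1.42.0. Other alternatives were either-strand counts, pseudocounts of 0 and 10, hairpin length, other denominators, no filter and each library alone. Named genes were the members, opposite-strand genes, the 2 detected genes nearest each member, listed paralogs with the nearest and extreme ratios, and tissue markers. Members and lists were chosen with earlier results of these data known. The Mir24-1 ratio and the difference between positions were added after seeing the data.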

Additional observations from a re-analysis of the deposited data

Results flagged for a closer look

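The antisense column, which the sense levels do not use, held a signal at 1 locus of the clusters. Antisense counts of Mir3074-1, on the strand of Mir24-1, reached 83.2 CPM in replicate 1 and 84.3 CPM in replicate 2, above the limits of 0.506 and 0.4997 CPM that a count of 0 allows. The antisense counts of the 5 members were at most 1 in either library.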

How the results depend on the processing

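No paired analysis was possible because the series holds 1 group. Of 79 values under alternatives, 62 were labelled as moved by less than the spread of the libraries and 17 by more, and no ratio changed direction. With 2 libraries, each library alone always lies within the SD of their mean, so those values could not count as moved. The tally also holds the counts of called members, which have no such spread. Per base of hairpin the log2 ratio of Mir27b over Mir27a was 3.95, of Mir27a over Mir23a -6.36, of Mir24-2 over Mir23a -6.69 and of Mir27b over Mir23b -3.57, which follows from the hairpin lengths. The 5 members held 2.58% of all reads and 4.96% of uniquely mapped reads, which follows from the larger denominators. Without the minimum ratio, 4 members differed between libraries. Each library alone gave log2 ratios of 1.09 to 1.19 for Mir23b over Mir23a and 3.65 to 3.74 for Mir27b over Mir27a. Counts called over all genes ran from 13 to 15 with the minimum ratio and reached 179 without it. Counting error is small for Mir23a, Mir23b and Mir27b; the number of libraries limits the precision.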

Other observations

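The minus strand of the same loci also gave reads. Mir3074-1, opposite Mir24-1, had 361 sense counts in replicate 1 and 273 in replicate 2, or 60.9 and 45.5 CPM, a mean of 53.2 ± 10.9 CPM (SD, n = 2). It was lower in replicate 2, whereas the reads opposite it were level at 83.2 and 84.3 CPM. Mir3074-2, opposite Mir24-2 on chromosome 8, has no row of its own, and the antisense counts of Mir24-2 were 1 in replicate 1 and 0 in replicate 2. Minus-strand reads that map to a single place were thus found at the Mir24-1 locus and hardly at the Mir24-2 locus. miR-3074-5p, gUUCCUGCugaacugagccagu with its seed in capitals, occurs in the hairpins of both Mir3074-1 and Mir3074-2, so a full-length read of it that maps to both places enters neither count.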
